A study of Drosophila melanogaster with 10 samples.

Results

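T5b neurons, the b subtype of the T5 motion-sensing neurons, were selected on raw counts of UMIs in single-cell transcriptomes. A UMI, a unique molecular identifier, stands for 1 captured transcript. Barcodes were kept if they held at least 1000 UMIs, at most 10% of them on mitochondrial genes, at most 10% on heat-shock (*Hsp*) genes, and at least 3 UMIs of *SoxN*, *Sox102F* and *Lim1* together. T5 cells then had 0 UMIs of the T4 genes *TfAP-2*, *dpr2* and *dpr3* and at least 1 UMI of *CG34355*. The a,b pair had at most 1 UMI of *pros* and *bi* and at least 2 of *dac*, *Dscam3*, *beat-IIIb* and *Fas2*, and b cells had at least 3 UMIs of *grn*, *Tl* and *CG34353*. Of 72871 barcodes, 56699 were kept, 7059 passed the T5 gate, 2009 also passed the a,b gate and 889 were T5b, or 1.57% of the kept cells. Because raw counts of these 16 genes chose the members, their levels are a description and were not tested.

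The cells came from 10 libraries, 2 biological replicates at each of 5 pupal stages, namely 24 h, 36 h, 48 h, 60 h and 72 h after puparium formation (h APF). All pupae carried SS00324-Gal4 recombined with UAS-mCD8::GFP, a split-Gal4 line that labels all T4/T5 neurons with membrane GFP, so that no library came from an unlabelled or differently treated fly. Pupae were pooled and dissociated, GFP-positive cell bodies were sorted, and RNA was profiled in droplets from the 3' end of transcripts. The line does not separate T4 from T5 or the subtypes a to d, and the sort keeps any cell with GFP.

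T5 neurons place their dendrites in the lobula and respond to moving dark edges, whereas T4 neurons, with dendrites in the medulla, respond to moving bright edges. The subtypes a, b, c and d prefer different directions of motion, and the axons of each end in a separate layer of the lobula plate. Between 24 and 72 h APF these cells grow their dendrites and begin to form synapses, while pulses of the steroid hormone ecdysone pass through the pupa. Subtypes are told apart mainly by transcription factors and by cell-surface proteins, among them the Dpr and DIP families and the Beat and Side families of immunoglobulin proteins, which bind each other between neighbouring cells.

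Cells passing the T5b rule made up 0.92% ± 0.20 (SD, n = 2) of the kept cells in 24 h APF libraries and 1.47% ± 0.31 in 36 h libraries. The share was 1.92% ± 0.08 at 48 h, reached 2.90% ± 0.29 at 60 h and was 1.50% ± 0.17 at 72 h. Replicates 1 and 2 held 35 and 83 members (24 h), 24 and 114 (36 h), 81 and 167 (48 h), 103 and 87 (60 h) and 59 and 136 (72 h). A rule on raw UMIs moves with depth, and the median UMI count of a member ranged from 3626 to 8540 between libraries, whose totals ran from 12798989 to 62530395 UMIs. With every cell thinned to 2000 UMIs the shares were lower, at 0.169% ± 0.011 (SD, n = 2), 0.519% ± 0.180, 0.653% ± 0.232, 0.909% ± 0.025 and 0.755% ± 0.113 from 24 to 72 h. The mean was highest at 60 h in both counts. After thinning, the 60 h libraries (0.927% and 0.892%) lay close to replicate 1 at 72 h (0.835%) and at 48 h (0.817%). A further 5382 kept cells passed every other gate but had no UMI of *CG34355*, and they are among the other kept cells with which T5b is compared. The 10 libraries shared 627 barcode sequences over all 45 pairs of libraries, and none of these was a T5b barcode in both libraries of a pair.

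**Figure D1:**
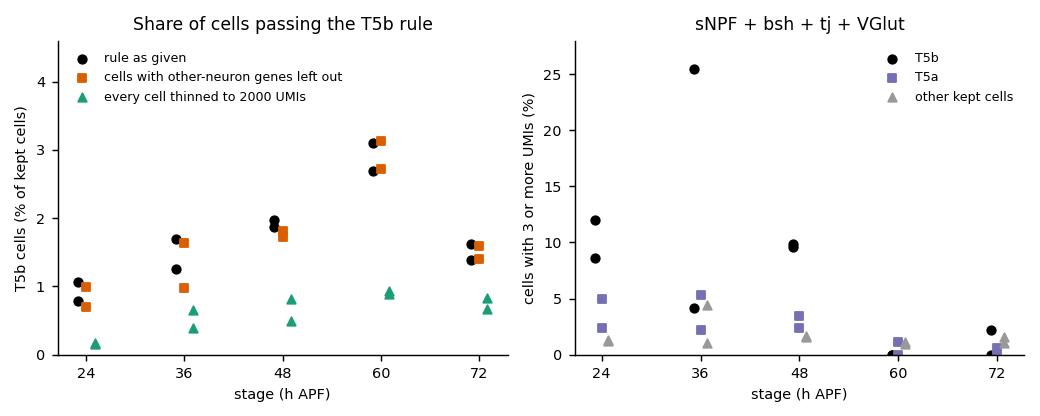
Left, T5b cells as a percentage of kept cells at each stage in h APF, 1 point per library, by the rule as given, with cells carrying other-neuron genes left out, and after thinning every cell to 2000 UMIs. Right, the percentage of cells with at least 3 UMIs of *sNPF*, *bsh*, *tj* and *VGlut* together in T5b, T5a and the other kept cells, which reached 25.4% of T5b in replicate 2 at 36 h APF and 2.21% or less at 60 and 72 h.

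A minority of early members carried transcripts that most of T5b lacked or held at a low level: *sNPF*, a neuropeptide precursor, *bsh* and *tj*, which encode transcription factors, and *VGlut*, the vesicular glutamate transporter. At least 3 UMIs of these 4 genes together, which were chosen after their values were seen, were found in 67 of 504 T5b cells at 24 to 48 h APF (13.3%, exact 95% interval 10.5 to 16.6%) and in 3 of 385 at 60 to 72 h (0.779%, 0.161 to 2.26%). The shares were 2.17% and 1.14% in the other kept cells and 3.90% and 0.495% in T5a. Replicate 2 at 36 h APF had the highest share, 29 of 114 members (25.4%, 17.7 to 34.4%), and the other early libraries had 1 of 24 to 10 of 83. Early libraries thus ran from 4.17% to 25.4%, and the pooled intervals, which count cells, do not cover this spread. Among the 504 early members, the 62 with at least 3 UMIs of *CG1688* held 142 CPM (counts per 1e6 UMIs of those cells) of *Sox102F*, 223 of *Lim1* and 236 of *dpr11*. The other 442 held 757, 961 and 980 CPM. *sNPF* stood at 3057 CPM in the 62 cells and at 25.1 in the 442, and the GFP transcript at 2995 and 6175 CPM. The 62 cells, split by *CG1688*, are not the same set as the 67, whose levels were not profiled. The 62 had the higher median UMI count in each early library, for example 5931 against 3676 in replicate 2 at 36 h. Whether doublets were among them was not tested. No cell type is named for either set. Each comparison was also made with all kept cells of at least 3 UMIs of *sNPF*, *bsh*, *tj* and *VGlut* together left out. This alternative was chosen after seeing the data, and calls of named genes that depend on it are pointed out.

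The libraries of a stage also differed from each other. For the T5b sums of 2545 genes, the log2 differences between replicates had an SD of 0.456 (24 h), 0.635 (36 h), 0.654 (48 h), 0.334 (60 h) and 0.879 (72 h). At 48 and 72 h, replicate 1 held more *Fas2*, *grn*, *Toll-7* and *dpr10* than replicate 2, in T5b and in the other kept cells alike. *Fas2*, for example, was 2848 and 998 CPM in T5b and 972 and 329 in the other cells at 48 h. Class differences were taken within each library.

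Levels below are CPM of the UMIs summed over a class in a library, given for replicate 1 and then replicate 2 of a stage, or as the median with the lowest and highest of the 10 libraries. Fold changes are log2 values from edgeR with their standard error (SE). Where both libraries of a stage were at 0 in a class compared, the fitted value depends on the prior count, and such values are given only for the greatest late minus early changes, with that limit stated there. Transcripts of a gene that overlaps others on its strand may be split between them. Among the genes named below, 3 or more such neighbours are annotated for *SLO2* (16), *CG34357* (12), *EcR* (11), *shakB* (10), *kuz*, *Ekar* and *CR43459* (6 each), *Con*, *Sox102F*, *CG42784* and *beat-Ic* (5 each), *para*, *dpr6*, *CR46354* and *mGluR* (4 each) and *CG34353*, *CG34355*, *ChAT*, *Hr3*, *ftz-f1*, *Btk29A*, *Svil*, *dpr16* and *Hsromega* (3 each). Many others, among them *dpr10*, *dpr11*, *hig*, *CG6959*, *Shawl*, *DIP-theta* and *GEFmeso*, have 1 or 2.

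The genes that chose the members are described first. Of the 3 b genes, *grn*, the GATA transcription factor gene grain, was 359 and 451 CPM (24 h APF), 671 and 568 (36 h), 2053 and 459.9 (48 h), 221 and 309 (60 h) and 1202 and 221 (72 h) in T5b. *Tl*, which encodes the receptor Toll, was 594 CPM (379 to 1483), and *CG34353* rose from 215 and 321 CPM in the youngest to 1803 and 1282 in the oldest libraries. By construction T5a held almost none of them, with at most 13.7, 21.3 and 24.1 CPM, whereas T4b held 384, 485 and 996 CPM as medians. The T5 gene *CG34355* was 271 CPM (217 to 361) in T5b, 255 CPM (199 to 351) in T5a and 315 CPM (245 to 382) in T5c,d. Of the a,b genes, *dac*, a transcription cofactor gene, was 427 CPM (248 to 750.3), the adhesion gene *Fas2* 995 CPM (259.9 to 2848), *Dscam3* 289 CPM (88.9 to 538) and *beat-IIIb* 573 CPM (239.7 to 985) in T5b. *pros* and *bi*, the c,d transcription factor genes, did not exceed 28.2 and 5.78 CPM. *SoxN*, *Sox102F* and *Lim1*, the transcription factor genes that all kept cells had to carry, were 2137, 607 and 835 CPM as medians in T5b and 2444, 661 and 1033 in the other kept cells.

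Members were then checked against T5b markers that the rule did not read. *dpr11*, the only given marker outside the rule, encodes a Dpr immunoglobulin protein and was 60.7 and 60.4 CPM (24 h APF), 869 and 635 (36 h), 1423 and 1174 (48 h), 434 and 469.6 (60 h) and 277 and 339.9 (72 h). In the other kept cells it was 11.5 and 10.8 CPM (24 h APF), 317 and 267 (36 h), 1175 and 1107 (48 h), 761 and 753 (60 h) and 344 and 394 (72 h). T5b libraries lay above the other cells at 24 to 48 h and below them at 60 and 72 h, so *dpr11* was higher in T5b than in the other cells only in the early libraries. Averaged over the stages it differed from T5a by a log2 fold change of 0.88 ± 0.16 SE (edgeR adjusted p = 1.9e-04), under the 2-fold limit set for a call, and from T5c,d by 2.52 ± 0.18 SE (adjusted p = 5.2e-17). The average over T5a hides unlike stages. At 24 h, T5 a,b cells with 0 UMIs of the b genes held 1 *dpr11* UMI of 262391 and 2 of 503190. At 48 h they held 721 of 506719 and 1253 of 1111125. Members with 8 or more b UMIs were similar at 48 h, with 700 of 500137 and 819 of 673034.

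*beat-IV*, a Beat family gene (3R, 23557412 to 23580077, + strand), gave the clearest positive check of b against a. The study describes it as a marker of b and c neurons, and elsewhere lists it among genes of b, c and d. Against T5c,d it was not called, with or without the cells of other-neuron genes. It was found in 28.3 to 57.6% of T5c,d cells per library and in 62.7 to 100% of T5b cells. It was 439 and 414 CPM (24 h APF), 558 and 528 (36 h), 307 and 297 (48 h), 206 and 199 (60 h) and 333 and 456 (72 h) in T5b. In T5a, gated like T5b but with at most 1 UMI of *grn*, *Tl* and *CG34353*, it was 49.5 and 50.3 CPM (24 h APF), 16.8 and 80.8 (36 h), 11.0 and 5.90 (48 h), 10.8 and 0 (60 h) and 9.61 and 14.7 (72 h). All 10 T5b values lay above all 10 T5a values. Among the a,b T5 cells ordered by their UMIs of the 3 b genes, *beat-IV* pooled over libraries was 17.1 CPM in the 944 cells with 0 UMIs, 63.9 at 1 UMI and 223 at 2 UMIs, just outside the limit. It was 357 CPM at 3 UMIs, just inside it, and 440 at 4. *side-II*, a Side family gene and a marker of other subtypes, ran the other way over the same cells, 432, 326, 327, 102 and 48.8 CPM. At the limit there were 49 cells with 2 UMIs and 53 with 3, and libraries were unequally represented. Replicate 2 at 36 h APF gave 21 of the 49 cells and 35 of their 49 *beat-IV* UMIs, and within it the cells had 35 *beat-IV* UMIs of 82198 at 2 and 41 of 78844 at 3. Pooled over libraries, most T5 a,b cells lay away from it, with 582 members holding 8 UMIs or more. Libraries differed in this too. Such members were 9 of 35 and 26 of 83 at 24 h and 23 of 24 and 23 of 114 at 36 h. They were 78 of 81 and 102 of 167 at 48 h, 93 of 103 and 73 of 87 at 60 h, and 58 of 59 and 97 of 136 at 72 h. At 24 h and in replicate 2 at 36 h, most members thus lay nearer the limit.

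The other markers gave a mixed answer. *ab*, which encodes the transcription factor Abrupt, was 113 CPM (43.1 to 249.9) in T5b as median and range over libraries and 9.50 CPM (0.716 to 178) in T5c,d, and 110.2 CPM in T5a (-0.20 ± 0.09 SE, not called). *CG14340* was 386 CPM (155 to 457) in T5b, 516 CPM (168 to 629) in T5a and 143 CPM (25.9 to 316) in T4b. *CG9008* had 0 UMIs in T5b at 24 h, was 60.8 and 54.1 CPM at 60 h against 84.3 and 77.9 in T5a and 73.8 and 63.8 in T5c,d, and was called lower than T5c,d (edgeR adjusted p = 0.0066). *DIP-theta*, a DIP family gene, was 106 and 175 CPM in T5b and 278 and 318 in T5a at 48 h APF, so it was lower in T5b than in T5a in both libraries of that stage. Genes that mark other subtypes were checked as well. All 6 of *side-II*, *side-IV*, *Con*, *mav*, *robo3* and *zld* were called lower than in the other kept cells, where 2.26% of 7735 tested genes were called lower, and all 6 calls held without the cells of other-neuron genes. Against T5c,d all but *zld* were called lower, where 1.20% of 6330 genes were. Against T5a only *side-II* was (0.126% of genes), with a median log2 difference of -0.16 over the 6 genes, and against T4b only *robo3* was called, and it was higher (0.916% of genes). *mav*, which encodes a ligand of the TGF-beta family, was 106 CPM (70.4 to 179) in T5b against 787 CPM (396 to 1378) in the other cells. Photoreceptor genes were rare, with *Arr2* and *trp* at 0 UMIs in T5b. Of 5 glial genes, *nrv2* was not rare, found in 15.7 to 92.2% of T5b cells per library. It was in 20.4 to 88.8% of the other kept cells. The remaining glial genes were in at most 8.33% of T5b cells per library. The 5 glial genes summed to 37.2 to 360.2 CPM in T5b, against 47.1 to 453 CPM in the other cells. The neuronal genes *elav*, *nSyb* and *brp* summed to 2380 to 4018 CPM in T5b and 2211 to 3732 CPM in the other cells. The label T5b was kept. Of the markers outside the rule, *beat-IV* and *side-II* separated T5b from T5a, and *ab*, *CG9008*, *CG14340* and *DIP-theta* were not called higher in T5b than in T5a. The given marker *dpr11* was called higher than in T5a only with the cells of other-neuron genes left out.

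**Figure D2:**
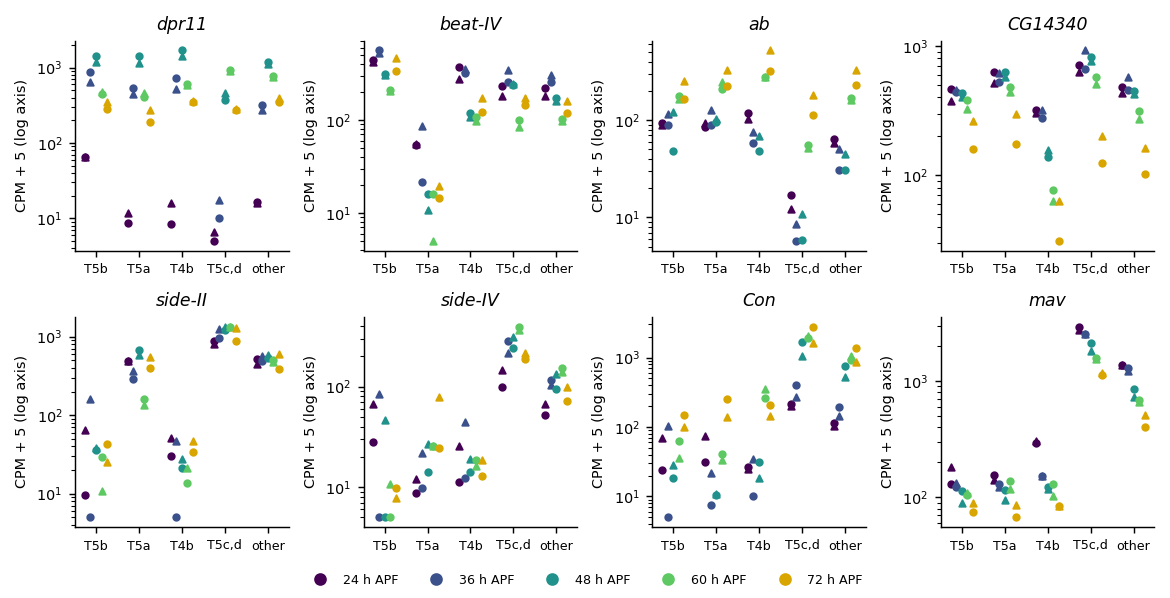
Levels of 8 genes that the rule did not read (*dpr11*, *beat-IV*, *ab*, *CG14340*, *side-II*, *side-IV*, *Con* and *mav*) in T5b, T5a, T4b, T5c,d and the other kept cells, as CPM + 5 on a log axis. Each point is 1 library, coloured by stage, with circles for replicate 1 and triangles for replicate 2. *beat-IV* in T5b, 199 to 558 CPM, does not overlap T5a, and *side-II* in T5b does not overlap T5c,d.

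T5a is the closest neighbour of T5b, since both are T5 cells of the a,b pair. T5b held more of several cell-surface genes, *beat-IV*, *dpr10*, *dpr5*, *DIP-delta*, *18w*, *Toll-7* and *kuz*, and less of *kek1*, *side-II*, *CG17839*, *Toll-6*, *drl* and *dnt*. Of 6330 genes tested, 60 were called higher in T5b and 8 lower, 1.07% in all, with 0.948% higher and 0.126% lower. A call here and below required an edgeR adjusted p under 0.05 and at least a 2-fold change. With the cells of other-neuron genes left out, 26 were called higher and 15 lower, and 22 and 8 of these were shared with the first count. The 8 lower calls were therefore all kept, and 38 of the 60 higher calls were lost.

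*kek1* was the lowest of the named genes relative to T5a. It encodes a leucine-rich repeat membrane protein that inhibits the EGF receptor in flies (2L, 12817000 to 12822787, - strand). T5b held 434 and 699.6 CPM (24 h APF), 98.7 and 416 (36 h), 235 and 293 (48 h), 49.9 and 69.6 (60 h) and 61.0 and 197 (72 h). T5a held 4996 and 4488 CPM (24 h APF), 5442 and 4543 (36 h), 4606 and 4625 (48 h), 4418 and 4042 (60 h) and 2042 and 2848 (72 h). The classes did not overlap in any library (log2 fold change -4.27 ± 0.10 SE, edgeR adjusted p = 1.8e-35; lower in 10 of 10 libraries). T4b was at 217 CPM (106 to 1336), and its difference from T5b was under 2-fold (-0.58 ± 0.14 SE). *side-II* was lower in T5b in every library too (log2 fold change -3.37 ± 0.18 SE, edgeR adjusted p = 7.7e-21), and so was *CG17839* (log2 fold change -3.12 ± 0.14 SE, edgeR adjusted p = 2.4e-24).

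Among the Dpr and DIP genes, *dpr10* (3L, 10147454 to 10186108, - strand) was 65.3 and 60.4 CPM (24 h APF), 118 and 121 (36 h), 685 and 296 (48 h), 364 and 481 (60 h) and 1450.5 and 287 (72 h) in T5b. T5a stayed between 9.26 and 69.7 CPM, and T5b was above it in 10 of 10 libraries (log2 fold change 3.25 ± 0.15 SE, edgeR adjusted p = 1.6e-23). The gap was smaller at 24 h, when T5b was 65.3 and 60.4 CPM and T5a 41.9 and 36.4. At 36 h both T5b libraries already lay above the highest T5a value of any stage. *dpr5* was also higher (log2 fold change 2.18 ± 0.37 SE, edgeR adjusted p = 4.3e-05). Of 19 Dpr genes tested, 4 were called higher (*dpr10*, *dpr6*, *dpr5* and *dpr8*) and 0 lower, beside 0.948% and 0.126% of all genes. The median log2 difference of the 19 was 0.42 against 0.00 over all genes. The calls without the cells of other-neuron genes were *dpr5*, *dpr10* and *dpr11*.

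*DIP-delta*, which encodes a DIP receptor (3L, 5424109 to 5442399, + strand), was higher in T5b than in all 4 classes it was compared with. Its T5b values were 4.67 and 25.6 CPM (24 h APF), 74.0 and 17.3 (36 h), 95.9 and 42.2 (48 h), 11.0 and 9.66 (60 h) and 0 and 15.7 (72 h). T5a ranged from 0 to 11.4 CPM, T4b from 0.356 to 9.88 and T5c,d from 0 to 10.8. The values overlapped at 24 and 72 h and stood apart at 36 to 60 h. Log2 fold changes were 3.17 ± 0.36 SE against T4b and 1.99 ± 0.24 against the other kept cells, and T5a and T5c,d were at 0 at 72 h. The comparisons with T5a, T4b, T5c,d and the other cells gave edgeR adjusted p of 3.2e-06, 1.5e-09, 1.0e-09 and 1.1e-14. All 4 calls held without the cells of other-neuron genes.

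Receptors and enzymes of cell signalling differed as well. *kuz* encodes the metalloprotease Kuzbanian, which cleaves Notch and other membrane proteins (2L, 13550139 to 13639411, + strand). It was 219 and 274 CPM (24 h APF), 193 and 200.3 (36 h), 286 and 253 (48 h), 969.9 and 1032 (60 h) and 967 and 581 (72 h) in T5b. In T5a it was 236 and 255 CPM (24 h APF), 209 and 168 (36 h), 86.5 and 62.3 (48 h), 71.1 and 57.0 (60 h) and 159 and 97.9 (72 h). At 24 and 36 h the classes overlapped, and from 48 h on T5b was higher in every library (log2 fold change 1.71 ± 0.08 SE, edgeR adjusted p = 1.0e-22 over all stages). *Toll-7*, a Toll family receptor, was higher by 2.20 ± 0.18 SE in T5b, in 9 of 10 libraries. *18w*, a further Toll family gene, was 26.2 CPM (6.72 to 230.0) in T5b and 3.25 CPM (0 to 24.0) in T5a. *hig*, which encodes a secreted protein of cholinergic synapses, was 358 CPM (266 to 693) in T5b and 151 CPM (80.4 to 294) in T5a, and was higher in all 10 libraries (log2 fold change 1.40 ± 0.08 SE, edgeR adjusted p = 2.6e-20). The receptors *drl* and *dnt*, which bind Wnt5, were lower (-1.70 ± 0.17 and -2.05 ± 0.27 SE).

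Several named differences from T5a did not last. *CG32052* (3.16), *CG31690* (1.44) and *Svil* (1.19, all log2) were higher in all 10 libraries and called, and the calls were lost at 0.81, 1.21 and 0.89 without the cells of other-neuron genes. The transcription factor gene *br* was called higher (1.39 ± 0.26 SE) with and without them. *mamo*, of the same BTB zinc-finger kind, was called with all cells (1.15) and fell short of 2-fold without them (0.91). Call counts moved from 48 to 73 as single libraries were left out.

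T4b shares the direction preference of T5b but is a T4 neuron, gated by at least 2 UMIs of the T4 genes and 0 of *CG34355*. T5b held more *CG42673*, *CG32204*, *CG9628*, *Shawl* and *CR43148*, and less *CG15537*, *twz*, *ana*, *bnb*, *NPFR*, *beat-VI* and *cep290*. Of the 6330 genes, 58 were called higher (0.916%) and 116 lower (1.83%), 2.75% in all. Leaving out the cells of other-neuron genes gave 27 higher and 135 lower, and 120 of 122 shared calls had the same direction. The higher calls of *kek3*, *CG9801* and *CG1688* were lost in that comparison.

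*Shawl*, which encodes a voltage-gated potassium channel of the Shaw family, was 201 and 153 CPM (24 h APF), 331 and 393 (36 h), 575 and 679.8 (48 h), 504 and 510.2 (60 h) and 221 and 307 (72 h) in T5b. T4b held 23.6 and 34.7 CPM (24 h APF), 139.8 and 151 (36 h), 174 and 191 (48 h), 163 and 133 (60 h) and 72.6 and 103 (72 h). T5b was higher in all 10 libraries (log2 fold change 1.76 ± 0.06 SE, edgeR adjusted p = 1.9e-27). *CG42673* reached 98.6 and 94.7 CPM at 60 h APF and was 6.77 and 0.542 in T4b at that stage (log2 fold change 2.91 ± 0.46 SE, edgeR adjusted p = 2.0e-06). *CG32204* was 88.4 CPM (17.6 to 347) against 23.9 CPM (3.71 to 90.4) in T4b, *CG9628* 83.1 CPM (18.7 to 380.2) against 28.7 CPM (5.29 to 105), and the long non-coding RNA *CR43148* 63.5 CPM (32.9 to 109) against 24.9 CPM (4.32 to 55.5). The label-check gene *CG14340* was also higher (1.40 ± 0.06 SE), and so was the muscarinic acetylcholine receptor gene *mAChR-B* (1.20 ± 0.14 SE). *beat-IV* passed with all cells (1.01 ± 0.06 SE) and fell just short of 2-fold without the cells of other-neuron genes (0.96).

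Of the 116 genes called lower than in T4b, 2 had 0 UMIs in T5b and 7 had at most 3. The 8 genes described next had medians of at most 9.83 CPM in T5b. *CG15537* was 0 and 0 CPM (24 h APF), 0 and 0 (36 h), 0 and 7.68 (48 h), 8.52 and 1.93 (60 h) and 37.6 and 75.7 (72 h) in T5b and 3.85 and 2.95 CPM (24 h APF), 53.2 and 95.9 (36 h), 193 and 233 (48 h), 385 and 229 (60 h) and 471 and 798 (72 h) in T4b (edgeR adjusted p = 1.4e-18). *ana*, which encodes a secreted glycoprotein, was 2.18 CPM (0 to 36.6) in T5b and 68.2 CPM (21.6 to 776) in T4b. *NPFR*, the receptor of neuropeptide F, was at most 29.0 CPM in T5b and reached 264 in T4b (edgeR adjusted p = 9.4e-04). *bnb* (-3.49 ± 0.24 SE), *twz* (medians 9.83 and 208 CPM) and *cep290*, a gene of the ciliary base (0 CPM (0 to 9.66) against 14.6 CPM (2.43 to 43.9)), were called lower and lay lower in 10 of 10 libraries. *CG8468* had 0 UMIs in all T5b cells and 167 in T4b, which makes it at least 9.55-fold lower over the group with a floor of 3 UMIs. *brv3* had 1 UMI in T5b and 226 in T4b, a ratio of pooled levels of 38.8 with a counting interval of 6.89 to 1539.

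*beat-VI* was low in T5b against each of the other classes after 36 h. T5b held 0 and 4.65 CPM (24 h APF), 0 and 32.7 (36 h), 25.4 and 43.2 (48 h), 11.0 and 7.73 (60 h) and 9.39 and 28.6 (72 h). T4b reached 2314 and 2383 CPM at 48 h, when T5a was 271 and 218 and T5c,d 137 and 163. T5b lay below all of these in both libraries of 48, 60 and 72 h. It was called lower than T4b (log2 fold change -2.69 ± 0.60 SE, edgeR adjusted p = 7.9e-04) and T5c,d (log2 fold change -1.87 ± 0.25 SE, edgeR adjusted p = 7.0e-08). Against T5a it missed the threshold with all cells (adjusted p = 0.094) and passed it without the cells of other-neuron genes (adjusted p = 3.8e-04, edgeR).

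**Figure D3:**
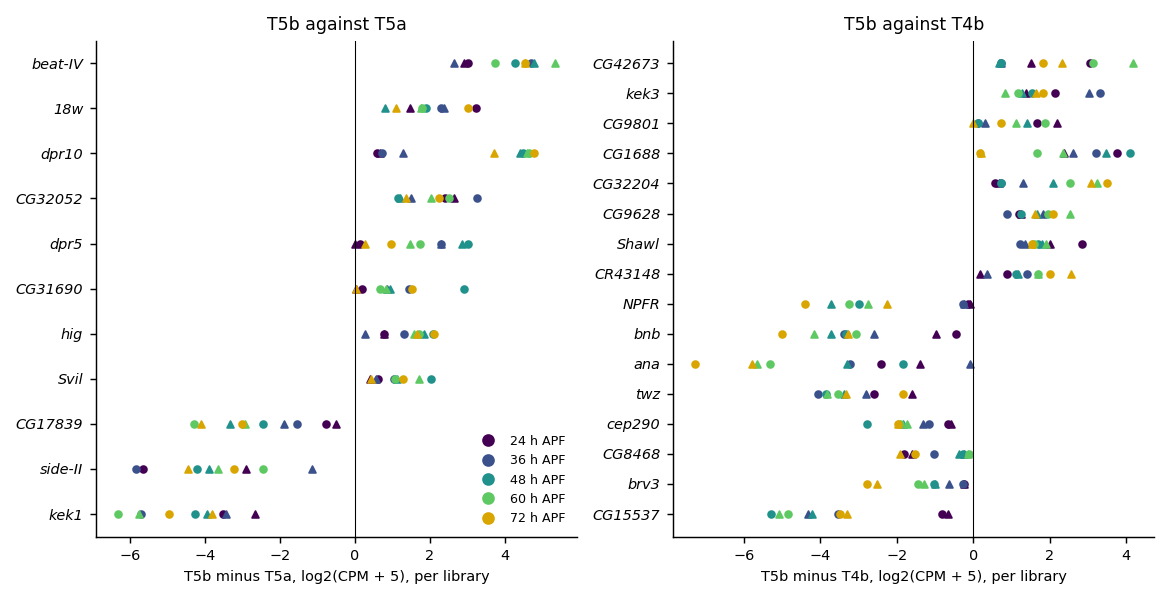
T5b minus T5a and T5b minus T4b, as the difference of log2(CPM + 5) within each library, for the named genes. Each point is 1 of 10 libraries, coloured by stage, with circles for replicate 1 and triangles for replicate 2. All points of *beat-IV* and *kek1* lie on 1 side of 0 against T5a, and all points of *Shawl* and *twz* against T4b.

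T5c,d cells were gated like T5b up to the T5 step, with at least 3 UMIs of *pros* and *bi* and at most 1 UMI of the a,b genes. Relative to them, T5b held more *CR44978*, *CG42339*, *sano*, *CG31806* and *CG7991*, and less *side-II*, *Ekar*, *Gat* and *CG33543*. Calls numbered 120 higher (1.90%) and 76 lower (1.20%), 3.10% of 6330 genes. They were 76 and 102 without the cells of other-neuron genes, with 139 shared. *CR44978*, a long non-coding RNA, was 476 and 423 CPM (24 h APF), 370.2 and 514 (36 h), 84.2 and 102 (48 h), 23.1 and 15.5 (60 h) and 18.8 and 11.4 (72 h) in T5b and no more than 9.15 CPM in T5c,d (log2 fold change 5.74 ± 0.31 SE, edgeR adjusted p = 2.0e-21). *CG7991* was 1008 and 1072 CPM at 48 h against 6.09 and 7.28 in T5c,d (log2 fold change 4.86 ± 0.23 SE, edgeR adjusted p = 1.5e-23). *sano* was 276 CPM (4.94 to 651) against 6.14 CPM (0.396 to 49.9), and *CG42339* 65.3 CPM (9.87 to 257) against 1.82 CPM (0.243 to 15.3). *CG31806* had 32 UMIs in T5b and 3 in T5c,d, a ratio of 48.2 with a counting interval of 15.1 to 246.

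On the other side, *side-II* was 27.8 CPM (0 to 158) in T5b and 1226 CPM (812 to 1340.1) in T5c,d without overlap (log2 fold change -4.99 ± 0.13 SE, edgeR adjusted p = 2.7e-34). The antisense RNA *CR46354* had 0 UMIs in T5b and 142 in T5c,d, at least 10.5-fold lower with a floor of 3 UMIs, and was not tested without the cells of other-neuron genes. *Ekar*, a glutamate receptor gene, had 4 UMIs in T5b and 435 in T5c,d (edgeR adjusted p = 5.8e-11), and the GABA transporter gene *Gat* had 8 and 319 (adjusted p = 1.5e-08). *CG33543* was 8.58 CPM (0 to 134) in T5b and 380.3 CPM (0.625 to 1279) in T5c,d. *mav*, *Con* and *robo3* were called lower too, with log2 fold changes of -4.14 ± 0.05, -3.94 ± 0.12 and -1.85 ± 0.10 SE. The transcription factor genes *ab* (3.03 ± 0.13 SE) and *mamo* (1.76 ± 0.12 SE) were higher in T5b. *kek1* was lower (-1.83 ± 0.12 SE), so that T5b was below both T5 classes in this gene.

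Against all other kept cells of the same libraries, which are mostly T4/T5 neurons of the other subtypes, more genes were low in T5b than high. Of 7735 genes, 23 were called higher and 175 lower, 2.56% in all, 0.297% higher and 2.26% lower. The median log2 difference over all genes was -0.13, and among the 175 lower calls 7 had 0 UMIs in T5b and 23 had at most 3. Without the cells of other-neuron genes, 6 were higher and 206 lower, and 5 and 151 of the calls were shared. The genes higher with and without those cells that were higher in all 10 libraries were *CG6959*, *Nnf1a* and *beat-IV*. *CG6959* was 56.0 and 74.4 CPM (24 h APF), 54.3 and 61.6 (36 h), 76.3 and 99.9 (48 h), 90.1 and 63.8 (60 h) and 221 and 299.9 (72 h) in T5b and 35.3 CPM (16.9 to 80.4) elsewhere (log2 fold change 1.40 ± 0.10 SE, edgeR adjusted p = 6.5e-40). *Nnf1a*, which encodes a kinetochore protein, was 18.4 CPM (3.86 to 28.9) against 6.06 CPM (1.65 to 17.7) (log2 fold change 1.27 ± 0.23 SE, edgeR adjusted p = 1.1e-06). *beat-IV* was higher in each of the 10 libraries (log2 fold change 1.06 ± 0.05 SE, edgeR adjusted p = 9.9e-108).

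Other genes that led the list were not called once the cells of other-neuron genes were left out. *CG1688* was 154 and 199.9 CPM (24 h APF), 98.7 and 576 (36 h), 172 and 196 (48 h), 175 and 207 (60 h) and 1577 and 1262 (72 h) in T5b, highest among the early libraries in replicate 2 at 36 h. At 72 h both T5b libraries also lay above those of the other cells, 1049.7 and 847 CPM. Its call (2.22 on the log2 scale) was lost without the cells of other-neuron genes (0.42). *18w* (1.47 and 0.65), *CG42339* (1.31 and 0.51) and *Myc*, a growth regulator (1.01 and 0.81), behaved alike. The estimate of *kek3* changed sign, from 1.79 to -1.39, but the latter had an edgeR adjusted p of 0.67 and shows no difference. With at least 1 UMI of each of *SoxN*, *Sox102F* and *Lim1* required instead, an alternative also chosen after seeing the data, *CG1688* was still called (1.31, edgeR adjusted p = 4.6e-37) and the other 4 genes were not.

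The genes lowest in T5b were mostly of low level in the other cells. *CG14989* had 6 UMIs in T5b and was 17.4 CPM (0.781 to 49.9) elsewhere (edgeR adjusted p = 2.6e-27), and *CR44663*, a long non-coding RNA, had 8 UMIs against 11.0 CPM (3.82 to 20.9) (adjusted p = 1.7e-13). *CG6891* had 0 UMIs in T5b, at least 11.7-fold lower over the group. With 0 UMIs as well, *vvl*, a POU transcription factor gene, was at least 4.66-fold lower, *DCX-EMAP*, a doublecortin gene, at least 5.24-fold, *ATPsynCF6L* at least 4.13-fold, *CR46354* at least 3.76-fold, *CR43426* at least 3.50-fold and *CG32196* at least 3.16-fold. *brv3* had 1 UMI, *CG1504* 2 and *CR44493* 1, with pooled levels 24.1 (4.31 to 951), 8.30 (2.29 to 68.6) and 15.1 (2.70 to 596) times higher in the other cells, counting intervals in parentheses. All 12 calls held without the cells of other-neuron genes.

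Calls against the other kept cells were also counted by gene family, beside the 0.297% of all genes called higher and the 2.26% called lower. Of 19 Dpr genes 0 were higher and 2 lower (*dpr16* and *dpr20*), of 7 DIP genes 1 higher and 2 lower (*DIP-delta*, and *DIP-eta* and *DIP-beta*), and of 20 Beat and Side genes 1 higher and 4 lower (*beat-IV*, and *beat-Ia*, *side-II*, *beat-VI* and *side-IV*). Leucine-rich repeat receptors had 2 of 14 higher and 3 lower, and axon guidance genes 0 of 24 higher and 4 lower, *robo2*, *robo3*, *drl* and *dnt*. Without the cells of other-neuron genes the lower calls were 4 Dpr, 2 DIP, 7 Beat and Side, 4 leucine-rich repeat and 5 axon guidance genes, the higher calls of *DIP-delta* and *beat-IV* held and those of the leucine-rich repeat genes *kek3* and *18w* were lost. Among 20 voltage-gated channel genes only *Ca-alpha1T*, a low-voltage-activated calcium channel, was called (log2 fold change -1.03 ± 0.07 SE, edgeR adjusted p = 7.5e-52), and it was -0.98 and no longer called without the cells of other-neuron genes. Of 21 genes of the presynaptic machinery and 14 genes of the ecdysone cascade 0 were called.

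**Figure D4:**
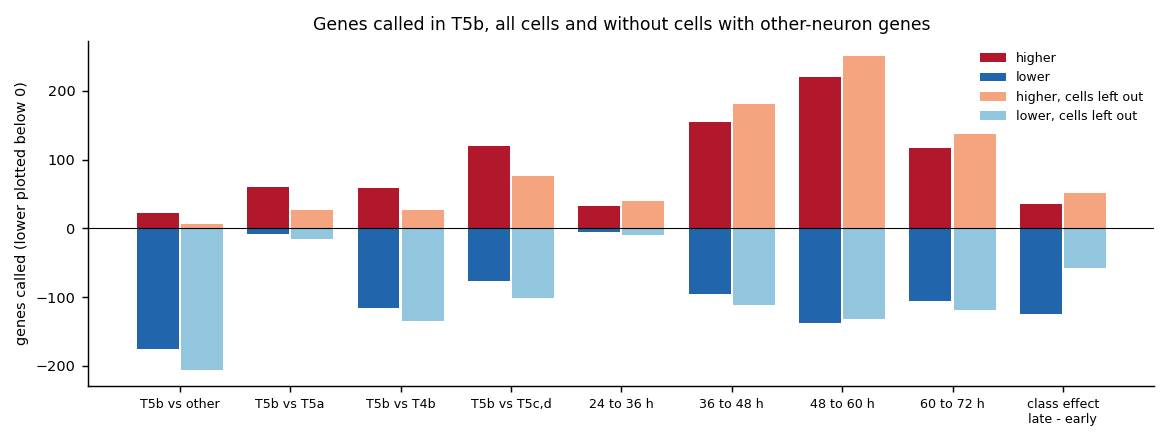
Number of genes called higher (bars above 0) and lower (bars below 0) in each of the 9 comparisons, with all kept cells and with the cells of other-neuron genes left out. Against T5a the higher calls dropped from 60 to 26, whereas between 48 and 60 h APF they rose from 220 to 250.

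The next comparison asked whether the position of T5b relative to the other kept cells changed with age, as the mean class effect at 60 and 72 h minus that at 24, 36 and 48 h APF. *kuz*, *Toll-7*, *Sema2b*, *mAChR-B*, *nAChRalpha3* and *Ca-alpha1T* rose in T5b relative to the other cells, and *dpr11*, *ab*, *hig* and *Oatp26F* fell. These are not all of the changes. The Side family gene *side-III* (edgeR adjusted p = 1.0e-80), *Con* and *robo2* were among further falls called with and without the cells of other-neuron genes. Of 7735 genes, 35 were called with a rise (0.452%) and 125 with a fall (1.62%), 2.07% in all. With the cells of other-neuron genes left out 51 rose and 58 fell, and 82 of 160 calls were shared. The share of those cells was 13.3% in early and 0.779% in late members, and falls lost without them are not described here. Without replicate 2 at 36 h APF, the library with the highest share, 105 genes were called in place of 160.

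*kuz* changed most clearly. In the other kept cells it was 331 and 355 CPM (24 h APF), 766 and 527 (36 h), 692 and 489 (48 h), 485 and 513 (60 h) and 425 and 276 (72 h). T5b lay below the other cells in all 6 early libraries and above them in all 4 late ones (difference 2.07 ± 0.09 SE on the log2 scale, edgeR adjusted p = 4.7e-120; 2.21 without the cells of other-neuron genes). T4b rose in the same interval, from 491 and 450.0 CPM at 48 h to 1021 and 1086 at 60 h, while T5c,d went from 1212 and 838 to 370.4 and 404. *Toll-7* turned in the same way, from 34.6 and 21.2 CPM in T5b against 133 and 82.3 in the other cells at 36 h to 147 and 214 against 78.1 and 94.8 at 60 h (difference 2.12 ± 0.15 SE, edgeR adjusted p = 1.2e-42). *Sema2b*, which encodes a secreted semaphorin, differed by 1.18 ± 0.14 SE, *mAChR-B* by 1.21 ± 0.16, *nAChRalpha3*, a nicotinic receptor subunit gene, by 1.19 ± 0.15 and *Ca-alpha1T* by 1.12 ± 0.13. These 6 calls held without the cells of other-neuron genes.

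*dpr11* fell by 1.84 ± 0.15 SE on the log2 scale relative to the other cells, and *ab* by 1.32 ± 0.14. T5b held 83.9 and 109.8 CPM of *ab* at 36 h, above 25.9 and 45.7 in the other cells, and 159.6 and 249.9 at 72 h, below 222 and 327. The level in T5b was higher at 72 than at 36 h, and the level in the other cells rose more. *hig* dropped by 1.18 ± 0.09 in the same sense: T5b stayed within 266 to 693 CPM while the other cells reached 845 and 370.3 CPM at 72 h. *Oatp26F*, an organic anion transporter gene, was 74.7 and 97.6 CPM (24 h APF), 143 and 269.6 (36 h), 256 and 231 (48 h), 207 and 234 (60 h) and 0 and 0 (72 h) in T5b and 5.99 and 7.40 CPM (24 h APF), 51.4 and 71.4 (36 h), 91.0 and 102 (48 h), 153 and 134 (60 h) and 3.97 and 3.74 (72 h) in the other cells. It was above the other cells in all 8 libraries up to 60 h and at 0 UMIs in both T5b libraries at 72 h, and the change relative to the other cells was called with and without the cells of other-neuron genes (edgeR adjusted p = 1.1e-14 with all cells).

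Changes between stages within T5b were tested on the 10 T5b sums alone. The fewest genes were called from 24 to 36 h APF, 33 up (0.658%) and 6 down (0.120%), 0.777% of 5019 genes. Between 36 and 48 h, 155 went up (3.09%) and 95 down (1.89%), 4.98% in all. The most were called between 48 and 60 h, 220 up (4.38%) and 137 down (2.73%), 7.11% in all. Between 60 and 72 h, 117 went up (2.33%) and 105 down (2.09%), 4.42% in all. Without the cells of other-neuron genes the counts were 40 and 10, 181 and 111, 250 and 132, and 137 and 119. Depth and replicate spread differed between stages. T5b sums ran from 202583 UMIs (replicate 1 at 36 h) to 1041456 (replicate 2 at 48 h). The SD between replicates ran from 0.334 (60 h) to 0.879 (72 h). The counts therefore do not rank the intervals by the amount of change. Neighbouring intervals share the libraries of a stage. With 2 libraries per stage the counts depended on single libraries. The 39 calls up to 36 h became 9 without either 24 h library, and the 250 calls up to 48 h became 139 without replicate 1 at 36 h, 110 without replicate 2 at 36 h and 162 without replicate 2 at 48 h. The 357 calls up to 60 h became 221 without replicate 1 at 48 h and 151 and 154 without replicate 1 and 2 at 60 h, and the 222 calls up to 72 h became 63 and 69 without these 60 h libraries.

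Genes of the ecdysone cascade peaked at different stages. Of 14 tested, 4 rose and 1 fell by 36 h, where 0.658% of all genes rose and 0.120% fell. In the next interval 2 rose and 4 fell (3.09% and 1.89% of all genes), by 60 h 1 rose and 4 fell (4.38% and 2.73%), and by 72 h 3 rose and 1 fell (2.33% and 2.09%). *br*, the early-response transcription factor gene Broad, went from 733 and 662 CPM at 24 h to 14.8 and 36.6 at 36 h (log2 fold change -4.55 ± 0.41 SE, edgeR adjusted p = 1.4e-04). *Blimp-1*, a transcriptional repressor, peaked at 36 h with 830.5 and 1181 CPM (24 h APF), 3806 and 2619 (36 h), 413 and 309 (48 h), 1.22 and 1.93 (60 h) and 0 and 1.43 (72 h). The nuclear receptor gene *Hr4* was 60.7 and 30.2 CPM (24 h APF), 2789 and 3023 (36 h), 9545 and 9729.6 (48 h), 971 and 958 (60 h) and 315 and 387 (72 h) and peaked at 48 h. *Hr3*, a nuclear receptor gene that ecdysone induces, had 0 UMIs at 24 h and 355 and 254 CPM at 36 h, at least 60.7-fold higher, and was 1196 and 1643 CPM at 48 h. *ftz-f1*, the nuclear receptor gene that Hr3 activates in flies, was 0 and 2.32 CPM (24 h APF), 0 and 0 (36 h), 0 and 6.72 (48 h), 1273 and 1268 (60 h) and 3474 and 3350.3 (72 h). It was called higher from 48 to 60 h (log2 fold change 8.28 ± 0.55 SE, edgeR adjusted p = 2.2e-05) and again to 72 h (1.48 ± 0.35 SE). *Eip74EF* and *Eip75B*, further early-response genes, fell from 48 to 60 h by 2.75 ± 0.29 and 3.08 ± 0.27 SE on the log2 scale. The other kept cells ran through the same course, for example 3939 and 2677 CPM of *Blimp-1* at 36 h and 3507 and 3507 of *ftz-f1* at 72 h, and 0 of the 14 genes were called between T5b and these cells.

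**Figure D5:**
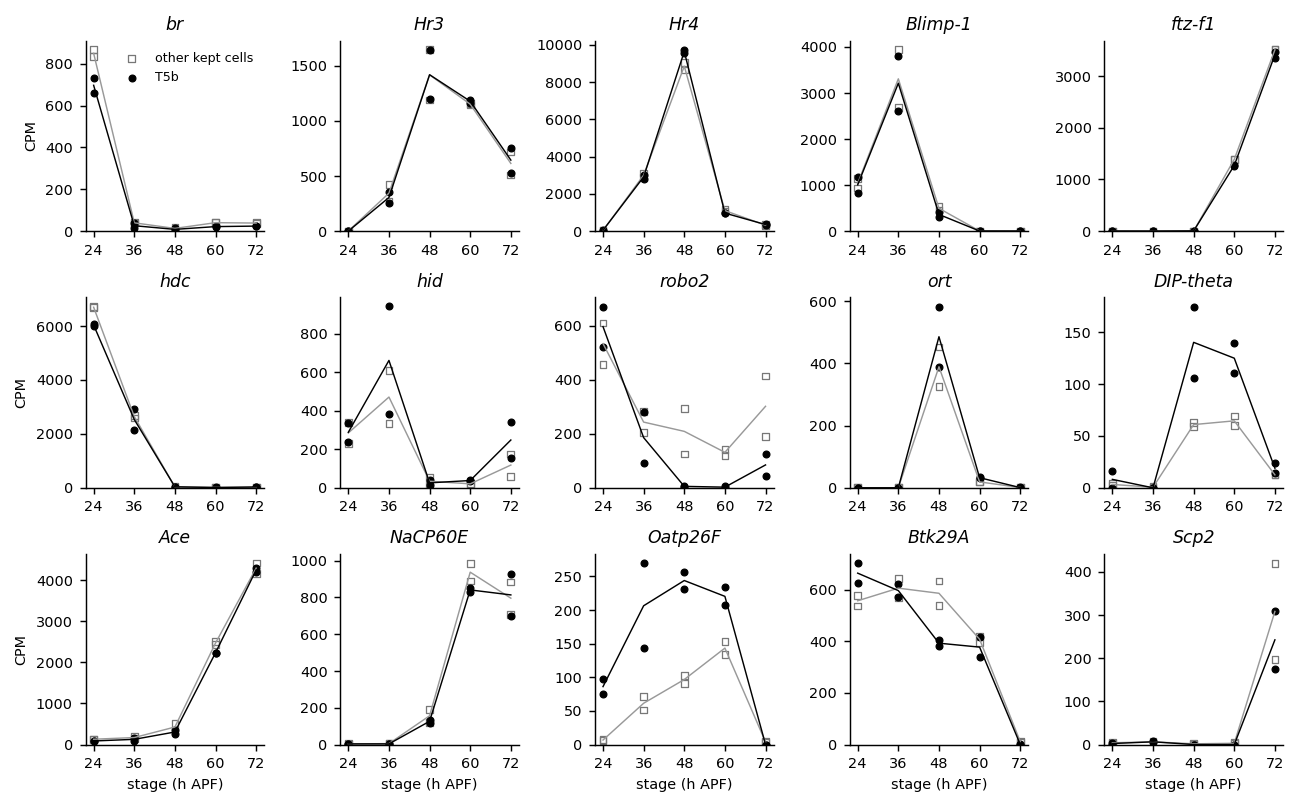
Levels in CPM of 15 genes against stage in h APF, with filled points for T5b, open squares for the other kept cells, 1 point per library, and lines through the stage means. *br*, *Blimp-1*, *Hr4* and *ftz-f1* peak at 24, 36, 48 and 72 h in both, whereas *DIP-theta* at 48 and 60 h and *Oatp26F* before 72 h are higher in T5b.

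Many ion channel genes were called higher between 36 and 60 h. Of 20 tested genes of voltage-gated and related channels, 10 rose and 0 fell from 36 to 48 h and 13 rose and 0 fell from 48 to 60 h, where 3.09% and 4.38% of all genes rose. Their median log2 change was 1.43 and 1.48, against 0.01 and -0.06 over all genes. The rises numbered 10 and 16 without the cells of other-neuron genes. *para*, the voltage-gated sodium channel, was 201 and 212 CPM (24 h APF), 355 and 379 (36 h), 2082 and 2969 (48 h), 6891 and 6889 (60 h) and 7304 and 6469 (72 h). *NaCP60E*, a further sodium channel family gene, was 4.67 and 2.32 CPM (24 h APF), 4.94 and 1.93 (36 h), 117 and 135 (48 h), 853 and 829 (60 h) and 699 and 928 (72 h) (log2 fold change 5.52 ± 0.48 SE, edgeR adjusted p = 9.2e-05, from 36 to 48 h). Potassium channel genes followed: *Shab* rose by 3.96 ± 0.37 SE to 48 h and 1.98 ± 0.25 to 60 h, *Sh* by 2.02 ± 0.28 and *Hk*, a channel beta subunit, by 3.71 ± 0.41 to 60 h. *Ih*, the hyperpolarisation-activated channel, fell from 210.0 and 158 CPM at 24 h to 19.7 and 11.6 at 36 h (log2 fold change -3.62 ± 0.54 SE, edgeR adjusted p = 0.007) and was 296 and 217 at 48 h. It was the only channel gene of the list called lower in any interval with all cells. From 60 to 72 h only *SLO2* and *Ca-alpha1T* rose. Of the 20 genes, the late minus early test against the other kept cells called 1, *Ca-alpha1T*, where 2.07% of all genes were called. These rises were therefore not shown to be particular to T5b.

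Transmitter receptors and synthesis genes rose at different times. *Rdl*, a GABA-gated chloride channel, was 140.0 and 158 CPM (24 h APF), 153 and 368 (36 h), 5957 and 6085 (48 h), 5320.3 and 5092 (60 h) and 2957 and 3656 (72 h), so its rise fell between 36 and 48 h (log2 fold change 4.64 ± 0.38 SE, edgeR adjusted p = 7.8e-05). *ort*, a histamine-gated chloride channel, went from 0 UMIs at 36 h to 583 and 389 CPM, at least 109-fold higher. *nAChRalpha5* stood out at a single stage, with 79.3 and 32.5 CPM (24 h APF), 83.9 and 135 (36 h), 199.6 and 608 (48 h), 14729.5 and 14754 (60 h) and 915 and 1108 (72 h), and the rise to 60 h (log2 fold change 5.34 ± 0.54 SE, edgeR adjusted p = 1.2e-04) was followed by a fall (-3.80 ± 0.50 SE). *nAChRbeta1* rose by 2.74 ± 0.35 SE to 36 h and 1.93 ± 0.27 to 48 h. *mGluR*, the metabotropic glutamate receptor gene, was 3.91 and 0.960 CPM at 48 h and 65.7 and 88.9 at 60 h. All 3 tested genes of cholinergic transmission rose from 48 to 60 h: *Ace* by 3.03 ± 0.31 SE, *ChAT* by 1.87 ± 0.35 and *VAChT* by 1.30 ± 0.23. *Ace*, which encodes acetylcholinesterase, was 93.3 and 79.0 CPM (24 h APF), 163 and 90.5 (36 h), 256 and 353 (48 h), 2229 and 2234 (60 h) and 4286 and 4207 (72 h). Of 21 presynaptic genes only *Rbp* and *Syt1* rose to 48 h, with *Rph* falling, and *Rbp*, *Syt1* and *comt* rose to 60 h. Over all genes, 3.09% rose and 1.89% fell to 48 h, and 4.38% rose to 60 h. The late minus early test against the other kept cells called 0 of 3 cholinergic and 0 of 21 presynaptic genes. Of 11 nicotinic and muscarinic receptor genes it called 2 rises and 1 fall, and of 16 GABA and glutamate receptor genes 2 rises (0.452% and 1.62% of all genes rose and fell).

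Some genes of the growth cone cytoskeleton fell over the same stages. Of 12 tested, 3 fell to 48 h, 4 to 60 h and 4 to 72 h, where 1.89%, 2.73% and 2.09% of all genes fell, and the median log2 change of the 12 was -0.41, -0.84 and -0.39. *tsr*, the actin-severing protein cofilin, was 2300.2 and 2354 CPM (24 h APF), 1427 and 1729 (36 h), 299 and 384 (48 h), 59.6 and 58.0 (60 h) and 18.8 and 14.3 (72 h). *Act5C*, a cytoplasmic actin, was 3051 and 2768 CPM at 24 h and 65.7 and 58.6 at 72 h. *chic*, which encodes profilin, fell by 1.22 ± 0.24 to 48 h and 1.40 ± 0.25 SE to 60 h. The late minus early test against the other kept cells called 0 of 14 cytoskeleton genes, so these falls were not shown to be particular to T5b. Of 3 tested innexin genes, *ogre* and *Inx2*, subunits of gap junctions, fell to 48 h by 2.25 ± 0.43 and 2.39 ± 0.41, whereas *shakB* rose to 36 h (log2 fold change 1.78 ± 0.33 SE, edgeR adjusted p = 0.029). *hdc*, headcase, dropped from 2937 and 2133 CPM at 36 h to 45.0 and 30.7 at 48 h (log2 fold change -5.96 ± 0.43 SE, edgeR adjusted p = 4.4e-05), *hid*, a cell death gene, from 943 and 381 to 39.1 and 12.5, and *robo2*, an axon guidance receptor, from 281 and 90.5 to 5.87 and 4.80.

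Cell-surface genes changed in both directions. *dpr11* rose from 24 to 36 h (log2 fold change 3.67 ± 0.30 SE, edgeR adjusted p = 1.2e-04) and fell from 48 to 60 h (log2 fold change -1.35 ± 0.25 SE, edgeR adjusted p = 0.006). *dpr1* was 56.0 and 62.8 CPM (24 h APF), 602 and 539 (36 h), 1677 and 1708 (48 h), 1651 and 1561 (60 h) and 268 and 409.9 (72 h). *dpr17* was 0 and 0 CPM (24 h APF), 0 and 11.6 (36 h), 76.3 and 37.4 (48 h), 1.22 and 1.93 (60 h) and 89.2 and 52.8 (72 h), with calls up, down and up again over the last 3 intervals, the first of which was lost without the cells of other-neuron genes. *DIP-theta* had 0 UMIs at 36 h and 106 and 175 CPM at 48 h, at least 36.6-fold higher, and fell by 2.80 ± 0.56 SE to 72 h. In total, 2 of 17 Dpr genes rose and 0 fell by 36 h, where 0.658% of all genes rose and 0.120% fell. The counts were 4 and 1 in the interval ending at 48 h (3.09% and 1.89% of all genes). They were 2 and 3 by 60 h (4.38% and 2.73%) and 1 and 2 by 72 h (2.33% and 2.09%). Of 18 immunoglobulin and cadherin adhesion genes, 3 rose and 4 fell to 60 h, and 1 rose and 5 fell to 72 h, beside the same shares. *otk*, a receptor-like pseudokinase of Wnt signalling, went from 130.2 and 129 CPM at 60 h to 4.69 and 0 at 72 h, from 174 UMIs to 1.

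The remaining genes with the greatest changes per interval were of other kinds. *CG31676* and *CG13594* had 0 UMIs at 24 h and were at least 44.0-fold and 19.9-fold higher at 36 h, *Drep1* rose by 4.66 on the log2 scale, and *Pde9*, a cyclic nucleotide phosphodiesterase, and *l(3)neo38* fell by 1.95 and 1.66. The immediate-early type gene *sr* went from 49 UMIs to 1, a fall of 54.9-fold with a counting interval of 9.40 to 2211. Up to 48 h, *CG17896*, *Syt12* and *Apoltp* appeared, at least 67.0-fold, 36.9-fold and 32.9-fold higher, while *Sox14*, a transcription factor gene, fell by 4.41 and *shf* went from 15 UMIs to 1, a fall of 32.3-fold with a counting interval of 4.96 to 1358. At 60 h, *CG46339* was 1494 and 1861 CPM after 5.87 and 6.72, *CG12769* 408 and 423 after 1.96 and 4.80, and *Tmc* and *CG34357* were at least 15.1-fold and 11.6-fold higher.

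Losses at 60 h need the caveat of the other-neuron genes. *sNPF* went from 391 and 428 CPM at 48 h to 0 UMIs, and *CG34155*, *CG12594* and *FMRFaR* from 102, 102 and 95 UMIs to 0, but none of the 4 was tested without the cells of other-neuron genes, where they fell below the filter on low counts. *Sidpn*, at least 20.4-fold lower at 60 h, was called in both cases. By 72 h, *Scp2*, a calcium-binding protein gene, was at least 92.4-fold higher than at 60 h, *app* at least 34.2-fold, *CR43459* at least 15.2-fold and *MYPT-75D* at least 14.7-fold, and *CG31808* went from 1 UMI to 595, 873-fold with a counting interval of 156 to 34520.2. *Oatp26F* fell at least 66.1-fold, *E(spl)m6-BFM*, a gene of the Enhancer of split complex, at least 36.4-fold and *CR45319* at least 7.27-fold, and *Btk29A*, a Tec family kinase, from 517 UMIs to 1, 353-fold with a counting interval of 63.0 to 13952. *CR45319* was not tested without the cells of other-neuron genes.

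Transcription factor genes of late development were followed in the same way. *mamo*, a BTB zinc-finger gene, was 4152 and 4627 CPM (24 h APF), 2690.3 and 2097 (36 h), 1305 and 709.6 (48 h), 138 and 124 (60 h) and 98.6 and 136 (72 h) and was called lower from 48 to 60 h (log2 fold change -2.77 ± 0.33 SE, edgeR adjusted p = 3.2e-04). *chinmo*, of the same protein family, was 329 and 424 CPM at 48 h and 818 and 808 at 60 h (1.27 ± 0.24 SE). *zld*, the zinc-finger gene zelda, had at most 1 UMI in a T5b library up to 48 h, then 17.0 and 9.66 CPM at 60 h and 146 and 154 at 72 h, and stood at 299.8 and 361 CPM in the other kept cells at 72 h. *Eip93F*, a transcription factor gene of the ecdysone cascade, was called lower from 36 to 48 h (-1.31 ± 0.33 SE). Of 13 tested genes of this list, 1 was called higher and 1 lower in the interval to 48 h, 2 and 1 to 60 h and 1 and 0 to 72 h. Over all genes, 3.09%, 4.38% and 2.33% were called higher in these intervals and 1.89%, 2.73% and 2.09% lower.

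Variation among the members of a library was described by the variance-to-mean ratio of counts after thinning to 2000 UMIs. Over 1250 genes the median ratio was 1.03, and counting noise alone gives 1. The 95th percentile was 1.52. The highest medians over libraries belonged to *Hsp23* (8.85), the nervous-system RNA *noe* (8.04), *Hsp83* (7.09), *Hsp26* (6.91), *Hsromega* (6.50), *roX2* (4.59), *roX1* (4.09) and *CG1688* (3.46). The other kept cells had 9.84 for *Hsp23*, 11.1 for *noe* and 4.33 for *roX1*, and 1.57 for *CG1688*. The *roX* RNAs belong to the dosage compensation complex of male flies and varied between members, with 28.1 to 65.7% of T5b cells per library at 0 UMIs of *roX1* and *roX2* and 26.5 to 64.0% at 5 or more, where the study's methods give both sexes for pupal brains and the labels give none.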

How the data were processed

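The deposited files hold raw counts, 1 matrix of UMIs per gene and barcode for each library, which the authors made with Cell Ranger 3 from 10x reads, using Ensembl release 97 with GFP and split-Gal4 sequences added per the study's methods. No value was normalized before deposit, and no doublet caller was run here. The members and the gene lists were chosen with earlier results of these data known.

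UMIs were summed per library and class: T5b, T5a (at most 1 UMI of the b genes), T4b (at least 2 UMIs of the T4 genes, none of *CG34355*), T5c,d (at least 3 UMIs of *pros* and *bi*, at most 1 of the a,b genes) and all other kept cells. edgeR 4.0.16 in R 4.3.3 (TMM, filterByExpr, quasi-likelihood F test, Benjamini-Hochberg adjustment over all tested genes) was fitted to 20 sums (T5b and other kept cells) and 40 sums (4 classes) with library as a term and a class effect per stage, averaged over stages, and to 10 T5b sums with stage alone. Rule genes, mitochondrial and heat-shock genes stayed in library sizes and were not tested. The 2 libraries of a stage are biological replicates per the study's methods, and the labels name no separate cultures or animals. P-values rest on the spread between libraries, which edgeR estimates partly across genes. In the fit of 20 sums they followed the estimate over its SE nearly as a normal distribution would. A gene's own spread thus had little weight there, and the very small p-values of that fit do not measure it. Intervals are exact 95% intervals and cover counting error only.

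Named genes were the called genes of largest change with 1 direction in all 10 libraries (12, 8, 8 and 5 per direction against other kept cells, T5a, T4b and T5c,d), the 5 per direction and interval whose libraries did not overlap between the stages, the 6 per direction for late minus early effects, up to 4 called members of each list, and the 8 most variable genes. *CG1688* in single cells, *sNPF*, *bsh*, *tj*, *VGlut* and *Oatp26F* over time were chosen after their values were seen. Gene positions come from the BDGP6.54 annotation, release 115. The test scripts were tested on simulated data. Alternatives were DESeq2 1.42.0, RLE size factors, no low-count filter, a stricter rule (at least 2 UMIs of *CG34355* and 5 of the b genes), cells of 2000 to 8000 UMIs, cells above 2 times their library's median left out, the block, and each library left out. Python 3.11.15, numpy 2.4.6, pandas 2.3.3 and scipy 1.17.1 were used.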

Additional observations from a re-analysis of the deposited data

Results flagged for a closer look

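The difference between T5b and the other kept cells changed between 24 to 48 h and 60 to 72 h APF by the edgeR test of that difference for 160 genes, of which 82 were also called with the cells of other-neuron genes left out. Among the 6 largest rises, *GEFmeso* (fitted log2 difference 4.35, 142 early and 184 late UMIs in T5b), *CG42784* (4.20, 10 of 114 UMIs early) and *mGluR*, the metabotropic glutamate receptor gene (4.002, 4 early and 294 late UMIs), were called in both cases. *CG11406* (6.63, 1 early and 57 late UMIs), *Lgr4* (6.21, 1 early and 63 late UMIs) and *CG15202* (5.56, 3 early and 56 late UMIs) were called with all cells and not with those cells left out. Each of these 6 genes had at least 1 early stage with both T5b libraries at 0, and each of the 6 largest falls had 0 late UMIs in T5b, so all 12 fitted values depend on the prior count and are no bounds. For *GEFmeso* the mean level was 38.8 CPM in T5b and 26.7 in the other kept cells early, and 102 and 55.1 late. The falls were *bark* (-11.76, 44 early UMIs), *beat-Ic*, a Beat family gene (-11.28, 26), *glob1*, a globin gene (-9.86, 16), *D*, a Sox family transcription factor gene (-9.83, 27), *mew*, an integrin subunit gene (-9.68, 23) and *Sox21b*, a further Sox gene (-9.52, 18). None of the 6 falls was called without the cells of other-neuron genes, and *D* was not tested there. The share of such cells among members was 13.3% at 24 to 48 h and 0.779% at 60 to 72 h, and their part in the falls was not tested beyond that comparison.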

How the results depend on the processing

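Of 2032 values of named genes under alternatives, 1776 kept their direction and their side of the threshold, 254 kept only their direction and 2 reversed, and 55 of 109 named results kept both throughout. *kek3* against the other kept cells went to -1.39 without the cells of other-neuron genes, with an edgeR adjusted p of 0.67. The late minus early value of *CG15202* went to -0.15 without replicate 2 at 72 h, within 8.01 and -0.15 over the libraries left out. With the adjusted p alone, 814 genes were called against the other kept cells, 175 against T5a, 830 against T4b, 644 against T5c,d and 323 late minus early. Against T5a, 43 were called with *SoxN*, *Sox102F* and *Lim1* each present and 41 without the cells of other-neuron genes. With no low-count filter the 4 intervals between stages gave 146, 457, 568 and 420 calls, and the stricter rule gave 16, 112 and 116 in the intervals ending at 36, 48 and 72 h APF. The mean T5b share of 1.74% became 0.601% with thinned cells and 0.613% with the stricter rule. The causes were not tested, beyond fewer or more genes or cells entering by construction. DESeq2 and RLE size factors kept each count within 1.5 times.

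Leaving out libraries gave 176 to 204 calls against the other kept cells, 48 to 73 against T5a, 155 to 179 against T4b, 177 to 210 against T5c,d, 105 to 161 late minus early and shares of 1.59 to 1.85%. The intervals between stages ranged from 9 to 56, 110 to 332, 151 to 447 and 63 to 249 calls. A stage left with 1 library was assumed to vary like the others.

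In the class comparisons the block is the library: without it 116 genes were called against the other kept cells, 41 against T5a and 38 late minus early, while T4b gave 128 and T5c,d 161. Replicate numbers of different stages are not said to mark a shared batch. Deviations of same-numbered T5b libraries from their stage means correlated between -0.370 and 0.658 over 2545 genes. With the number as a replicate block the intervals gave 42, 288, 406 and 253 calls.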
